A study of Mus musculus with 2 samples.

Results

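The miRNA genes Mir199a-1, Mir199a-2, Mir199b, Mir214 and Mir21a were described in gastrocnemius, a calf muscle, as 5 of the 2202 miRNA gene rows of the deposited count files. They were chosen by gene identity, from their Ensembl gene IDs in GENCODE M21, because the encoded miRNAs are known from fibroblasts and other mesenchymal cells. MicroRNA-seq counts reads of short RNA, labelled here with a size range below 30. The labels describe a single group of 2 libraries from male B6CASTF1/J mice aged 25 days, an F1 hybrid of a C57BL/6 and a CAST parent, untreated as far as the labels say, and number them as biological replicates 1 and 2. The mice are labelled as separate males but share a donor identifier, so the spread between libraries may be technical. The files thus give levels in a single state of a single tissue, and the only contrast is replicate 2 against replicate 1.

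A miRNA gene is transcribed as a long precursor from which Drosha and then Dicer cut a short duplex, and either strand of it (the 5p or the 3p arm) can be loaded into an Argonaute protein. Bases 2 to 8 of the loaded strand, the seed, select the mRNAs to be repressed. The miR-199 genes are paralogs that lie antisense in introns of the dynamin genes, and Mir199a-2 and Mir214 are cut from a shared antisense transcript, Dnm3os, which mice need for normal skeletal growth. In human lung fibroblasts miR-199a-5p is known to target caveolin-1, and in muscle cells miR-214 is known to target the Polycomb methyltransferase Ezh2. MiR-21, which represses among others Pdcd4 and Spry1, is known to rise in fibroblasts of injured heart and other fibrotic organs.

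Mature sequences are shown because they decide which reads could be placed at a single gene. They are RefSeq sequences on GRCm38.p6, printed 5′ to 3′ with the seed in capitals.
miR-199a-5p: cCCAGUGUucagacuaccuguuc
miR-199a-3p: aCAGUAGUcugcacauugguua
miR-199b-3p: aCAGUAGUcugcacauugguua
miR-214-5p: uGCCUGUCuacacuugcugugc
miR-214-3p: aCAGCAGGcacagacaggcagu
miR-21a-5p: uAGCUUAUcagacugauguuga
miR-21a-3p: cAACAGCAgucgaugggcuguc

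The 3p arms of the miR-199 genes were identical, so that this sequence occurred in 3 annotated hairpins, those of Mir199a-1, Mir199a-2 and Mir199b. The miR-199a-5p sequence occurred in 2, Mir199a-1 and Mir199a-2. Both arms of miR-214 and both arms of miR-21a occurred in 1 annotated hairpin each. No 2 of the distinct arms shared a seed. Among other RefSeq mature miRNAs, miR-761 carried the seed of miR-214-3p and miR-21c that of miR-21a-5p. Mir761 and Mir21c had 0 counts in both libraries, where 0 counts allow up to 3 counts, or 1.48 CPM (replicate 2) and 2.01 CPM (replicate 1).

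In the Mir199b hairpin, the stretch that aligned to miR-199a-5p differed from it by C10U, which gives the base of miR-199a-5p, its position counted from 1 at the 5′ end and the base of Mir199b. The difference, in capitals here, lies outside the seed.
Mir199b, bases 26 to 48 of the hairpin: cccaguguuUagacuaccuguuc
This stretch (chr2:32318485-32318507, plus strand) occurred in no other annotated miRNA gene, and each of its 6 windows of 18 bases was also found in Mir199b alone.

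The miR-199 hairpins are shown whole, in lower case where a base falls in a 20-base stretch that another annotated miRNA gene also holds and in capitals elsewhere.
Mir199a-1: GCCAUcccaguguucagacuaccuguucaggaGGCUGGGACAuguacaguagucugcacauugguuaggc
Mir199a-2: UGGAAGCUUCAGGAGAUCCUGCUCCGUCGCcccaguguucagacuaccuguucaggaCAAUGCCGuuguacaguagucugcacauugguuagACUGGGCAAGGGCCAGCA
Mir199b: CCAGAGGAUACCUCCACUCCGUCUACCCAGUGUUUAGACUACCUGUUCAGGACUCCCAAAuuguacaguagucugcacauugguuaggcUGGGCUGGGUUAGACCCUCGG

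In Mir199a-1, 55 of 70 bases lay in shared stretches, in Mir199a-2 54 of 110 and in Mir199b 29 of 110. Of all 20-base windows, 66.7% were unique to Mir199a-1 in its hairpin, 82.4% to Mir199a-2 and 89.0% to Mir199b, against 100% for Mir214 and for Mir21a. Windows of 18 bases gave 60.4%, 77.4% and 86.0% for the miR-199 genes. The shared stretches ran past the ends of the mature arms. Mir199a-1 and Mir199a-2 had 27 bases in common around the 5p arm and 26 around the 3p arm, and Mir199a-1 and Mir199b had 28 in common around the 3p arm. A read of a miR-199 3p arm that stays within these stretches aligns equally well to more than 1 of the genes. The files set reads that aligned to several loci apart in a summary row, so such reads are in none of the miR-199 rows.

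**Figure D1:**
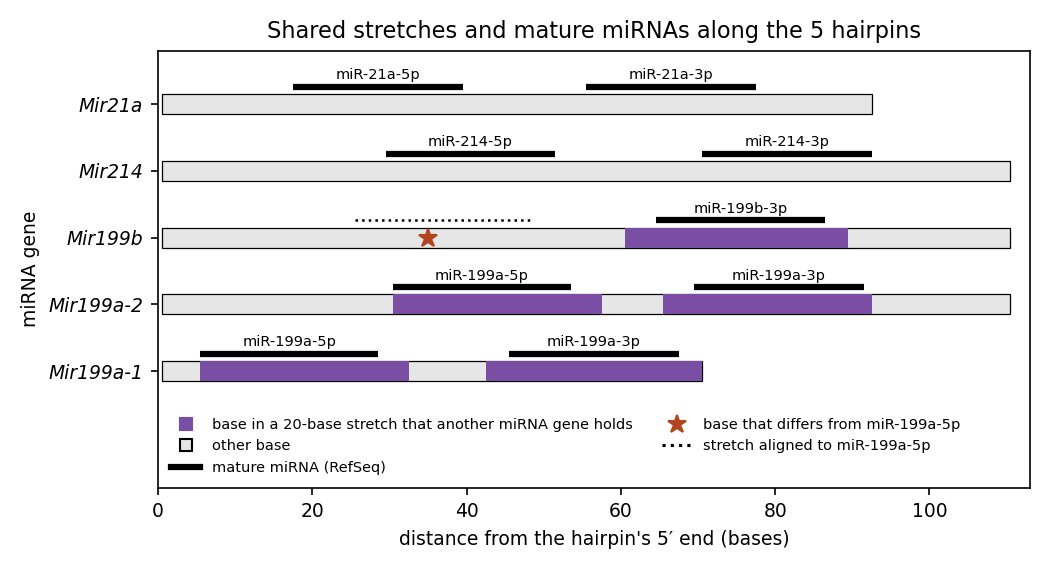
Each bar is the annotated hairpin of a gene, with distance from its 5′ end in bases, mature miRNAs as black lines above and bases in shared 20-base stretches in purple. Both arms of Mir199a-1 and Mir199a-2 and the 3p arm of Mir199b lie wholly in shared stretches, whereas Mir214 and Mir21a hold none and the Mir199b stretch aligned to miR-199a-5p (dotted, with its differing base starred) lies outside them.

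By annotation (GENCODE M21, mm10), Mir199a-2 (ENSMUSG00000070126.1, chr1:162217814-162217923, plus strand) lies whole in an exon of 2 Dnm3os transcripts and overlaps exons of 3 more in part, 191 bases from the start of that gene. Mir214 (ENSMUSG00000065516.1, chr1:162223368-162223477, plus strand) lies whole in an exon of 2 Dnm3os transcripts and overlaps an exon of 1 more in part, with 5444 bases between the hairpins. Both are antisense to Dnm3 and overlap none of its exons. Mir199b (ENSMUSG00000092807.1, chr2:32318460-32318569, plus strand) lies antisense in an intron of Dnm1. Mir199a-1 (ENSMUSG00000065547.1, chr9:21496495-21496564, minus strand) lies antisense in an intron of Dnm2. Mir21a (ENSMUSG00000065455.1, chr11:86584067-86584158, minus strand) lies on the strand of the autophagy gene Vmp1, in the annotated UTR at the end of its last exon, 202 bases from the gene's end. Within 10000 bases of these genes the only other annotated miRNA gene was Gm23363, 116 bases from Mir199b, with 0 counts in replicate 2 and 1 in replicate 1.

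Replicate 2 held 2028332 gene counts and replicate 1 held 1491341, which came to 20.6% of the reads of replicate 2 and 19.9% of those of replicate 1. Another 71.8% of reads in replicate 2 and 69.8% in replicate 1 aligned to several loci. Levels are given as CPM, counts scaled to a library total of 1e6 gene counts and not divided by length. At least 10 counts in both libraries were found for 267 genes, and 1632 had none in either. All 8 striated muscle marker genes had counts, although Mir133a-2 had only 8 in replicate 2 and 1 in replicate 1. They held 4.82% of replicate 2 and 5.50% of replicate 1, nearly all from Mir206. Reads with more than 1 possible locus are missing from these shares, so the shares do not rank Mir206 against the other markers. How many such reads each marker here and below lost was not examined. The miR-200 family, which keeps Zeb1 and Zeb2 low in epithelium, had 17 counts over its 5 genes in replicate 2 and 11 in replicate 1, led by Mir200c with 12 counts in replicate 2 and 8 in replicate 1. With Mir203 and Mir205 added, the epithelial markers held 0.0254% of replicate 2 and 0.0223% of replicate 1. The hepatic Mir122 had 23 counts in replicate 2 and 20 in replicate 1, and the 6 neuronal markers, all Mir9 and Mir124a genes, had 1 count in each library. The files hold no mRNA, so which cells the 5 miRNAs came from cannot be read from them. In whole muscle, fewer cells of a type and less RNA per cell cannot be told apart.

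The 5 genes together held 26527 counts in replicate 2 and 17150 in replicate 1. This is 1.31% of gene counts in replicate 2 (exact 95% Clopper-Pearson interval 1.29 to 1.32) and 1.15% in replicate 1 (1.13 to 1.17), with a mean of 1.23 ± 0.112% (SD, n = 2). Nearly all of it was Mir21a, which made up 96.2% of the 5 genes' counts in replicate 2 and 94.7% in replicate 1. The miR-199 genes held 154 counts in all in replicate 2 (0.00759% of gene counts) and 84 in replicate 1 (0.00563%). All intervals and floors take in counting error alone. Copies made by PCR are not independent molecules, so the intervals may be too narrow.

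Mir21a had 25523 counts in replicate 2 and 16247 in replicate 1, which is 12583 CPM in replicate 2 (exact 95% interval 12430 to 12738) and 10894 CPM in replicate 1 (10728 to 11062). At 11739 ± 1194 CPM (SD, n = 2) it ranked at place 20 of 2202 genes, at place 18 in replicate 2 and at place 19 in replicate 1. Ranks here compare only reads placed at a single gene, so genes that share sequence with others can rank too low. The libraries were close, and replicate 2 was the higher. Next above it stood Mir335, hosted by the imprinted gene Mest, with 12340 CPM in replicate 2 and 11680 CPM in replicate 1. Next below stood Mir30d, with 10280 CPM in replicate 2 and 9229 CPM in replicate 1.

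Mir214 had 850 counts in replicate 2 and 819 in replicate 1, which is 419 CPM in replicate 2 (391 to 448) and 549 CPM in replicate 1 (512 to 588). Although its count was higher in replicate 2, its level was lower there because that library is deeper. It ranked at place 82, with a mean of 484 ± 92.0 CPM, between Mir329 of the imprinted Dlk1-Dio3 region (559 CPM in replicate 2, 416 in replicate 1) and Mir101b (580 CPM in replicate 2, 373 in replicate 1). Both neighbours in rank were higher in replicate 2. A single read in replicate 1 lay on the opposite strand of Mir214, and none in replicate 2, while the other 4 genes had no opposite-strand read in either library.

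Mir199b had 126 counts in replicate 2 and 51 in replicate 1, which is 62.1 CPM in replicate 2 (51.7 to 74.0) and 34.2 CPM in replicate 1 (25.5 to 45.0). The mean was 48.2 ± 19.7 CPM, at place 194. It led the miR-199 genes in both libraries and is the gene whose 5p stretch has no copy elsewhere among annotated miRNA genes. Its neighbours in rank, Mir1983 at 48.8 CPM in replicate 2 and 48.9 CPM in replicate 1, and Mir665 at 43.4 CPM in replicate 2 and 51.6 CPM in replicate 1, did not pass the test given later.

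Mir199a-2 had 28 counts in replicate 2 and 31 in replicate 1, which is 13.8 CPM in replicate 2 (9.17 to 20.0) and 20.8 CPM in replicate 1 (14.1 to 29.5). Its mean was 17.3 ± 4.94 CPM, at place 231 between Mir3068 (21.2 CPM in replicate 2, 14.8 in replicate 1) and Mir677 (12.8 CPM in replicate 2, 20.8 in replicate 1). The libraries' intervals overlapped. A read that stays within either arm also aligns to Mir199a-1, and the files do not show which part of the hairpin the counted reads cover.

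Mir199a-1 had 0 counts in replicate 2 and 2 in replicate 1. For replicate 2 the upper limit that 0 counts leave is 1.48 CPM, and the 2 counts stand for 1.34 CPM (0.162 to 4.84) in replicate 1. Both libraries were at or under the floor of 3 counts, so no ratio was formed and the gene did not enter the test. Its mature arms are the same as those of Mir199a-2, and a row near the floor does not show that these miRNAs were absent.

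**Figure D2:**
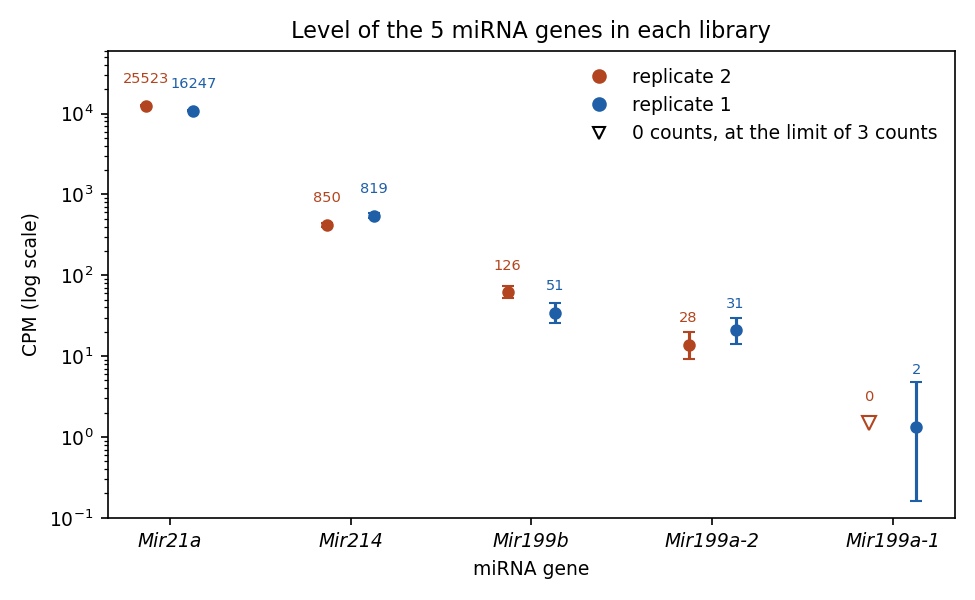
Points give CPM on a log scale for each gene in replicate 2 (left, red) and replicate 1 (right, blue), with exact 95% intervals and the counts printed above. Levels run from above 10000 CPM for Mir21a down to Mir199a-1 with 0 counts in replicate 2, drawn at the limit that 0 counts allow, and 2 in replicate 1.

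The order from high to low was Mir21a, Mir214, Mir199b, Mir199a-2 and Mir199a-1 in both libraries. Intervals of neighbours in that order did not overlap in either library, except for Mir199b and Mir199a-2 in replicate 1 (25.5 to 45.0 against 14.1 to 29.5 CPM).

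Within libraries, Mir21a exceeded Mir214 by 30.0-fold in replicate 2 (exact 95% interval 28.0 to 32.2) and by 19.8-fold in replicate 1 (18.5 to 21.3), intervals that do not overlap. Mir214 exceeded Mir199a-2, its partner on Dnm3os, by 30.4-fold in replicate 2 (20.9 to 46.0) and by 26.4-fold in replicate 1 (18.5 to 39.1), intervals that largely overlap. This pair joins a gene with no shared stretch to a gene whose arms are both shared. Unequal output of the transcript and reads set aside at several loci cannot be told apart.

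Mir214 exceeded Mir199b by 6.75-fold in replicate 2 (5.59 to 8.20) and by 16.1-fold in replicate 1 (12.1 to 21.8). Mir199b exceeded Mir199a-2 by 4.50-fold in replicate 2 (2.97 to 7.04) and by 1.65-fold in replicate 1 (1.03 to 2.66). For either ratio the intervals of the libraries do not overlap. Put as a share, Mir199b made up 81.8% of the counts of Mir199b and Mir199a-2 together in replicate 2 (74.8 to 87.6) and 62.2% in replicate 1 (50.8 to 72.7). These rows do not hold like reads. Reads within either arm of Mir199a-2 or the 3p arm of Mir199b are set aside, whereas the Mir199b 5p stretch has no annotated copy. The ratios and the share therefore do not rank the output of these genes.

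**Figure D3:**
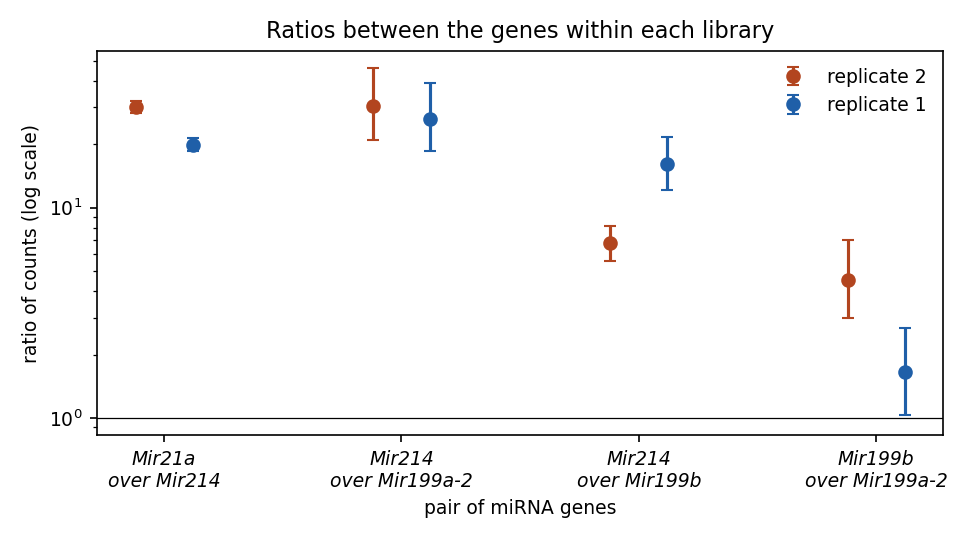
Ratios of counts between pairs of genes, on a log scale, in replicate 2 (left, red) and replicate 1 (right, blue) with exact 95% intervals. Reads that aligned to several loci are left out of the counts. The ratio of Mir214 to Mir199a-2 has overlapping intervals in the libraries, whereas those of Mir21a to Mir214 (30.0 in replicate 2, 19.8 in replicate 1), of Mir214 to Mir199b (6.75 in replicate 2, 16.1 in replicate 1) and of Mir199b to Mir199a-2 (4.50 in replicate 2, 1.65 in replicate 1) lie apart.

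Differences between the libraries were tested for all 313 genes with at least 10 counts in sum, by a two-sided exact binomial test with Benjamini-Hochberg adjustment. It compares 2 libraries with counting error only. Of the 5 genes, 4 entered it: Mir21a and Mir199b were higher in replicate 2, Mir214 was lower and Mir199a-2 did not pass. Thus 3 of 4 were called where 38.3% of all tested genes were, with 19.8% of all tested genes higher and 18.5% lower. The test passes smaller differences at higher counts, and these shares are not matched to the levels of the 4 genes. The median log2 ratio of replicate 2 over replicate 1 was -0.08 over the 4 genes and 0.05 over all tested genes. The genes did not move together.

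Mir199b had the largest ratio of the 4, a log2 ratio of 0.87 (exact 95% interval 0.39 to 1.37, exact binomial test adjusted p = 0.000675), or 1.83-fold. Of the 313 tested genes, 34 had a ratio at least as far from 0. Mir21a had a log2 ratio of 0.22 (0.19 to 0.25, exact binomial test adjusted p = 1.19e-50), or 1.16-fold. Mir214 had -0.38 (-0.52 to -0.24, exact binomial test adjusted p = 4.14e-07). Mir199a-2 had -0.58, with an interval from -1.37 to 0.20 that includes both no difference and that of Mir214 (exact binomial test adjusted p = 0.262).

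**Figure D4:**
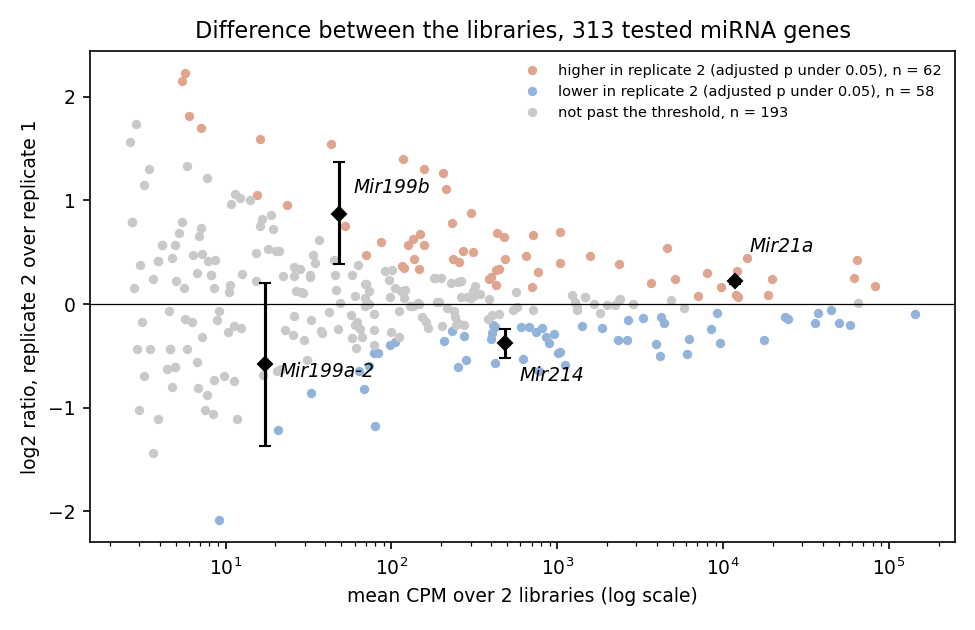
Each point is a tested miRNA gene, with mean CPM on a log scale against the log2 ratio of replicate 2 over replicate 1. Black diamonds with exact 95% intervals mark Mir21a and Mir199b above 0 and Mir214 and Mir199a-2 below 0, all within the cloud of the 313 genes.

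With a spread between libraries added to counting error (edgeR exact negative binomial test, biological coefficient of variation 18% from the same 2 libraries), none of the 4 genes passed. The adjusted p was 0.983 for Mir199b and 1 for the other 3 (edgeR). This spread was estimated from the differences under test and lets 0 of 313 genes pass, with 15 at an unadjusted p under 0.05. Cell type markers also differed between the libraries, where 19.8% of all tested genes were higher and 18.5% lower in replicate 2. Of 7 tested striated muscle markers, Mir206, Mir486 and Mir1a-2 were lower in replicate 2, Mir499 was higher and 3 did not pass. The smooth muscle and pericyte genes Mir143 and Mir145a held 7.87% of counts in replicate 2 and 5.89% in replicate 1, and both passed as higher in replicate 2. The endothelial Mir126a (8.75% in replicate 2, 7.83% in replicate 1) and the red cell genes Mir451a and Mir144 (0.0356% in replicate 2, 0.0174% in replicate 1) also passed as higher. Of 5 leukocyte markers, 2 were higher and 3 lower, and they held 0.290% of replicate 2 and 0.362% of replicate 1. Their part in the differences of Mir21a, Mir199b and Mir214 was not tested.

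Other miRNAs tied to fibrosis in other tissues were taken as a list of 22 genes. All 22 had counts, holding 4.57% of gene counts in replicate 2 and 3.67% in replicate 1. Of 21 tested, 10 were higher in replicate 2, 1 was lower and 10 did not pass (exact binomial test), where 19.8% of all tested genes were higher and 18.5% lower. The list had a median log2 ratio of 0.26 against 0.05 over all tested genes. The list was led by Mir22, with 16040 CPM in replicate 2 and 11880 CPM in replicate 1. Mir322, an X-linked miRNA gene of the miR-15 seed family, followed with 13510 CPM in replicate 2 and 10880 CPM in replicate 1, then Mir27b with 5536 CPM in replicate 2 and 4702 CPM in replicate 1. Mir21a thus stood below Mir22 and Mir322 in mean level and above the other 20 genes. These levels leave out reads that aligned to several loci, and how many such reads each listed gene lost was not examined.

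Among its miR-29 genes, known to repress collagens, Mir29a had 1274 CPM in replicate 2 and 792.6 CPM in replicate 1, a log2 ratio of 0.70 (exact binomial test adjusted p = 8.73e-44). Mir29c had 390.5 CPM in replicate 2 and 213.9 CPM in replicate 1, a log2 ratio of 0.88 (exact binomial test adjusted p = 1.67e-20). Mir29b-1, with 15 counts in replicate 2 and 24 in replicate 1, had a log2 ratio in the other direction, -1.11, and did not pass (exact binomial test adjusted p = 0.0563). Mir29b-2, with 8 counts in replicate 2 and 2 in replicate 1, did not pass either. Mir155, a miRNA of activated immune cells, was the 1 lower gene, with 862.8 CPM in replicate 2 and 1060 CPM in replicate 1. Mir212 had 2 counts in replicate 2 and 1 in replicate 1 and was not tested.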

How the data were processed

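The deposited values are raw, unnormalized counts of reads for each miRNA gene on mm10 with GENCODE M21, as the text deposited beside them states. Which aligner and trimming were used, and how mismatches such as CAST alleles were handled, is not given in the sources used here. Every file has no header, 4 summary rows and 3 count columns. Column 3, counts on the strand of the gene, was used. Summary rows, 79.4% of reads in replicate 2 and 80.1% in replicate 1, stayed out of library sizes and tests.

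CPM was computed on gene counts. Log2 ratios and the exact binomial test used TMM library sizes (edgeR 4.0.16 in R 4.3.3, scipy 1.17.1), with an adjusted p threshold of 0.05. The test was tried on simulated data with counting error alone, which cannot show how it behaves with added spread between libraries. The libraries did not hold the same counts, and 38.3% of tested genes differed beyond counting error. Whether they came from separate preparations or separate animals was not tested. With 1 group there was no quasi-likelihood test. Alternatives were DESeq2 1.42.0 size factors, gene count totals, no filter, counts without strand, other denominators and single libraries.

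Shared stretches were searched on both strands of all 2202 annotated hairpins, not in the whole genome. RefSeq mature sequences were matched by symbol for all 5 genes.

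The genes and lists were chosen with earlier results of these data known. Named genes are the 5 genes, the gene next above and below each in mean CPM (where both libraries had at least 10 counts), annotated miRNA genes within 10000 bases or overlapping on the opposite strand, and the 3 highest of each list. Mir761 and Mir21c were named for their seeds, and Mir29a, Mir29b-1, Mir29b-2, Mir29c, Mir155 and Mir212 after their values were seen.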

Additional observations from a re-analysis of the deposited data

How the results depend on the processing

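With gene count totals, DESeq2 size factors, no filter on low counts or counts without strand, all 4 tested genes kept their direction and their side of the threshold. With the edgeR exact negative binomial test, the log2 ratios of 0.87 for Mir199b, -0.38 for Mir214 and 0.22 for Mir21a no longer passed, and 0 genes were higher and 0 lower over the table. On all reads as denominator, levels were 2380 CPM for Mir21a, 97.8 for Mir214, 9.80 for Mir199b and 3.49 for Mir199a-2, and the share of the 5 genes was 0.249%, since most reads are outside gene rows. Without the highest gene, Mir378a, in the denominator Mir21a had 13716 CPM. In counts without strand, which leave reads in overlapping genes unassigned and so have a smaller total, levels were 15706, 648 and 23.1 CPM for Mir21a, Mir214 and Mir199a-2, and the share was 1.64%. Single libraries gave shares of 1.15% to 1.31%. A ratio between libraries has no value with a library left out, and the members' levels with each left out are the single values given for the libraries. No paired analysis was possible because there is 1 group. The depth limits Mir199a-1, at 0 counts in replicate 2 and 2 in replicate 1, and Mir199a-2, whose log2 interval runs from -1.37 to 0.20.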

Other observations

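Across all genes, counts were set beside how far a gene shares its sequence with other annotated miRNA genes. RefSeq mature arms were matched by symbol and found in the hairpin for 1018 of 2202 genes. All listed arms had a copy at another miRNA gene for 90 of them, some but not all had for 60, and none had for 868. Arms and windows were matched on either strand, so a gene annotated on the opposite strand of the same locus counts as a copy. Reads of such a pair can still align to a single locus. How many genes of each group have their copy only in this way was not examined. The 90 include Mir199a-1, Mir199a-2 and, because only its 3p arm is listed, Mir199b. The 868 include Mir214 and Mir21a. Any count was found for 36.7% of the 90 genes, 75.0% of the 60 and 48.3% of the 868. At least 10 counts in both libraries were found for 22.2%, 45.0% and 22% of these groups in the same order. Among genes with any count, the median was 126 CPM for the 90, 20.3 CPM for the 60 and 4.57 CPM for the 868. Mir199b at 48.2 CPM, Mir199a-2 at 17.3 CPM and Mir199a-1 at 0.671 CPM all lay below that median of 126 CPM. By 20-base windows over all 2202 genes, at least 10 counts in both libraries were found for 3.37% of the 712 genes with under 50% of windows unique, 14.3% of the 421 genes with 50% to under 100%, which include the miR-199 genes, and 17.1% of the 1069 genes with all windows unique, which include Mir214 and Mir21a. The groupings thus differ in what they show, and these are descriptions of the whole table without a test.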
